A study of Mus musculus with 2 samples.

Results

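The measurements described here are the RNA levels of 8 transcription factor genes of the megakaryocyte and erythroid lineages, Gata1, Gata2, Klf1, Gfi1b, Zfpm1, Tal1, Nfe2 and Fli1. They were chosen by name, with earlier results of these data known, and all 8 are among the 14366 genes of the deposited single-cell tables. The cells were haematopoietic stem cells (HSC), sorted as Lin- Sca-1+ c-Kit+ CD150+ CD48- bone marrow cells from a pool of 8 wildtype C57/B6 mice aged 6 to 8 weeks. All cells were cultured in cytokine-supplemented medium that contained SCF, a growth factor of blood stem and progenitor cells, at 100 ng/ml. The vehicle group received sterile water for 48 h, and the other group received the iron chelator deferoxamine (DFO) at 10 µM for 48 h. Each group is 1 droplet library, so no value has a replicate. Intervals cover counting error only, and no p-value is given. A difference is called beyond counting error where the intervals of both libraries do not overlap.

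GATA1 and GATA2 are zinc finger proteins that bind the same GATA sequence. In blood development GATA2 acts in stem and progenitor cells, and GATA1 takes its place as cells enter the erythroid and megakaryocyte lineages, a change known as the GATA switch. FOG1, encoded by Zfpm1, is the cofactor that GATA1 needs for much of its activity. TAL1 joins GATA factors in a shared complex, and GFI1B is a repressor needed in both lineages. KLF1 drives erythroid genes and FLI1 drives megakaryocyte genes, and each opposes the other. NFE2 acts late in platelet formation. Pf4 encodes platelet factor 4 and serves here as the megakaryocyte readout, while Procr encodes EPCR, a surface marker of stem cells.

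Members of this network bind near each other's genes, so the start sites of members are shown with the letters that GATA and KLF proteins are known to bind. RefSeq promoter entries on build GRCm38.p6 (mm10) matched 6 of the 8 genes with 8 start sites. The 250 bases before each start were searched on both strands for NGATAN with A or T as the first base and A or G as the last (a GATA match) and for CCNCNCCC (a CACCC match). Matches can overlap one another. GATA matches occurred in 26.5% of all 32851 promoters of this length and CACCC matches in 45.9%. Among the 13746 promoters of genes in the deposited tables, the shares were 17.7% and 62.1%. Among the 8 genes' promoters, 3 of 8 held a GATA match and 6 of 8 a CACCC match. RefSeq places Gata1 at chrX:7959260-7976663, Klf1 at chr8:84901982-84905291, Gfi1b at chr2:28609450-28621982 and Tal1 at chr4:115056426-115071755. A match is a description of the letters and not a binding site. Each sequence runs 5′ to 3′ toward its start site, with matches in capitals.
Gata1: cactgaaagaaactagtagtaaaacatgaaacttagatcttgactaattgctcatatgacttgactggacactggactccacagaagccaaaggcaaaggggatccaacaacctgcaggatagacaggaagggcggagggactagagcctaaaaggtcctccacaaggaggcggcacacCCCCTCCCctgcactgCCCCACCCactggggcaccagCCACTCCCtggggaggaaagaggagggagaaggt
Klf1: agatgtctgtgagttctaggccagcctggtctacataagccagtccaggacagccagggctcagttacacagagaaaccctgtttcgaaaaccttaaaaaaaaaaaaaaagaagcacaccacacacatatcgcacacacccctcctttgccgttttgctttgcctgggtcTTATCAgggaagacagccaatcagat
Gfi1b: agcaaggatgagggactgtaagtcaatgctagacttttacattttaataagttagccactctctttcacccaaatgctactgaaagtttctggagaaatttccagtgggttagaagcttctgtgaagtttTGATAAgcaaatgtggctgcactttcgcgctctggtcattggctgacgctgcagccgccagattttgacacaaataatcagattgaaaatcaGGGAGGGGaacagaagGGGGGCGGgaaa
Tal1: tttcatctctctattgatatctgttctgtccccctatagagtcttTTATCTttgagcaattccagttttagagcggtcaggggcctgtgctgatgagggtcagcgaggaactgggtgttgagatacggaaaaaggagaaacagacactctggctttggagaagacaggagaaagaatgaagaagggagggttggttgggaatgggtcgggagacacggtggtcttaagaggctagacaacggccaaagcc
The Gata1 window, chrX:7967911-7968160 on the minus strand, held CACCC matches that begin 71, 55 and 34 bases before the start and no GATA match. It lies inside the RefSeq span of Gata1, before a start within the gene, and is not the sequence upstream of the whole gene. For Klf1, chr8:84901732-84901927 on the plus strand is shown, which leaves out 54 bases next to the start that the annotation places in an exon. Its single GATA match begins 80 bases before the start. The Gfi1b window, chr2:28621983-28622232 on the minus strand, held a GATA match 120 bases before the start and 2 CACCC matches 28 and 12 bases before it. The first Tal1 window, chr4:115056176-115056425 on the plus strand, held a GATA match 205 bases before the start. Zfpm1 held 4 CACCC matches, and the Pf4 promoter held neither pattern.

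The vehicle library holds 8708 cells with 260938938 molecules and the DFO library 9852 cells with 284326017 molecules, at medians of 27805.5 and 27114 molecules per cell. Both libraries share 24 cell barcodes. All 10 fixed HSC markers were above 1 CPM (molecules of a gene per 1000000 molecules), with summed levels of 250.4 in vehicle and 286.7 in DFO. Of 12 megakaryocyte markers, 10 were in the tables, and their sum was 1691 in vehicle and 735.8 in DFO. Most of it was Pf4, at 1447 and 592.2. Neutrophil and monocyte markers (7 of 8 in the tables) summed to 196.7 and 178.1. Erythroid markers (9 of 12 in the tables, of which 4 were below 1 CPM in each library) summed to 881.4 and 856.4. Most of this sum was Hbb-bt (518.2 and 488.7) and Car2 (340.7 and 352.2), so it says little about the other markers. Mast cell or basophil markers (7 of 9) summed to 10.6 and 7.03. The defining eosinophil genes were not in the tables, and 2 of 4 stromal or endothelial markers were in the tables, at a sum of 0.690 and 0.816. At full depth 91.4% of vehicle cells and 81.9% of DFO cells held a Pf4 molecule. The part of these marker levels in the levels of the 8 factors was not tested, beyond the comparisons at equal Pf4 classes.

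Levels are given in CPM over all cells of a library. Because each captured molecule is counted once at its 3′ end, these values can be set side by side between genes without correction for length. Gata2 was the most abundant factor, at 141.6 CPM in vehicle and 131.7 in DFO. Zfpm1 followed at 128.8 and 93.7, and Fli1 at 88.3 and 75.7. Nfe2 (54.2 and 48.9), Tal1 (50.5 and 46.4) and Gfi1b (46.1 and 38.4) lay close together in the middle. Gata1 was at 23.975 CPM (95% Poisson interval 23.4 to 24.6) in vehicle and 14.9 (14.4 to 15.3) in DFO. Klf1 was the lowest, at 3.27 (3.05 to 3.496) and 1.80 (1.65 to 1.97). The order of the 8 genes was the same in both libraries, and no gene's interval overlapped that of its neighbour in the order. Gata2 thus made up 26.4% of all molecules of the 8 factors in vehicle and 29.2% in DFO, against 4.47% and 3.30% for Gata1.

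**Figure D1:**
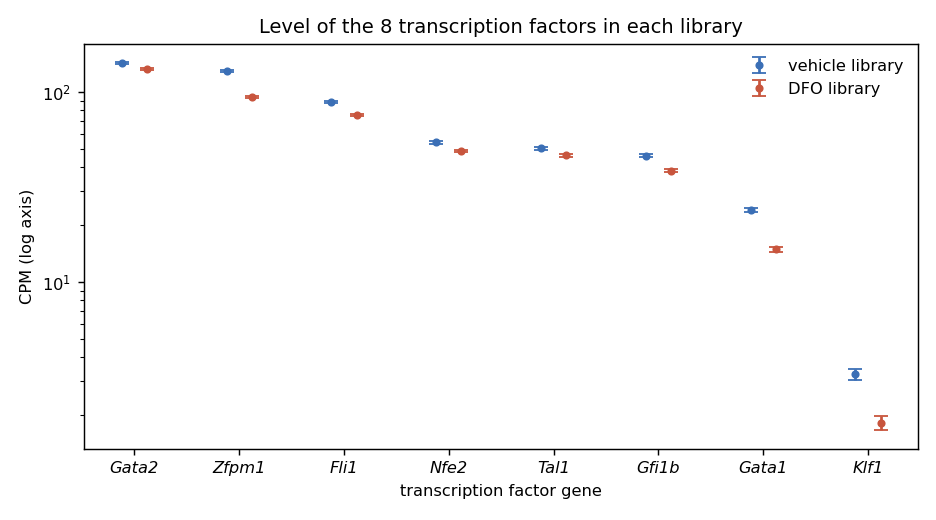
CPM (log axis) of the 8 transcription factor genes, ordered by level, in the vehicle and the DFO library. Points are sums over all cells of 1 library and bars are 95% Poisson intervals, mostly smaller than the points. Every gene lies lower in the DFO library, and the gap is widest for Gata1 and Klf1.

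All 8 factors were lower in the DFO library. Their intervals did not overlap between the libraries for any of the 8. The share of all genes with intervals apart was not computed, so this count has no background beside it. The size of the difference, log2((DFO CPM + 1)/(vehicle CPM + 1)), ranged widely. Folds are ratios of CPM without the added 1, so they do not match the log2 values exactly, least of all for the low Klf1. Gata1, the master regulator of both lineages, was lower by 1.61-fold (log2 -0.65), and Klf1, the erythroid activator, by 1.81-fold (log2 -0.61). Zfpm1 was lower by 1.37-fold (log2 -0.45), Gfi1b by 1.20-fold (log2 -0.26) and Fli1 by 1.17-fold (log2 -0.22). Nfe2 (log2 -0.15), Tal1 (log2 -0.12) and Gata2 (log2 -0.10) differed least. Among the 7 factors above 10 CPM, the gap was widest for Gata1 and its cofactor gene Zfpm1 and narrowest for Gata2.

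The background for the direction and size of these differences is all 7476 genes at 10 CPM or more in either library. Their median log2 difference was 0.02 (SD across genes 0.12). In that background 41.3% of genes were lower in DFO, and the median over the 8 factors was -0.24. A log2 difference of -0.25 or below was found for 2.31% of the background genes and of 0.25 or above for 1.24%. Of the 7 factors at 10 CPM or more, 3 were lower by that much (Gata1, Zfpm1 and Gfi1b) and 0 were higher. At a cut of 0.5, where 0.575% of background genes were lower and 0.0134% higher, Gata1 was the only 1 of the 7. For Gata1, 0.268% of background genes had a lower log2 difference, and for Zfpm1 0.655%. For Gata2 the share was 12.6%, so a difference of its size was common among genes of these libraries. The difference between libraries that received different treatments cannot be told apart from a difference between 2 cultures or 2 droplet runs.

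The share of cells with at least 1 molecule was compared after each cell of 10000 or more molecules had been thinned to exactly 10000, which left 8357 vehicle and 9419 DFO cells. Gata1 was detected in 16.5% of vehicle cells and 10.9% of DFO cells. Klf1 was detected in 3.27% and 1.74%, Zfpm1 in 61.9% and 53.2%, and Gfi1b in 31.2% and 27.9%. Gata2 was found in 64.4% and 62.1%, Fli1 in 50.7% and 48.0%, and Nfe2 in 41.6% and 38.1%. The exact binomial intervals stood apart for 7 of the 8 genes, the exception being Tal1 at 37.2% (36.2 to 38.3) and 35.7% (34.7 to 36.7). How many of all genes stand apart in this way was not computed. Without thinning, Gata1 was in 29.4% and 19.99% of all cells.

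Gata1 molecules were held by fewer cells than Gata2 molecules. Among thinned cells, the 10% with the most Gata1 molecules held 72.0% of all thinned Gata1 molecules in vehicle and 94.0% in DFO, where this 10% takes in nearly all of the 10.9% of cells that were positive. For Gata2 the corresponding 10% held 35.5% and 35.9%, and for Nfe2 40.7% and 42.8%. In cells with any Gata1 the mean was 2.44 molecules in vehicle and 2.15 in DFO at full depth. In cells with any Gata2 it was 4.89 and 4.50. Both the share of positive cells and the mean within them were lower for Gata1 in the DFO library. A gene with fewer molecules is also found in fewer cells by sampling alone, so these shares follow the level in part.

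A thinned cell held a median of 3 of the 8 factors in both libraries. At least 5 factors were found in 17.8% of vehicle cells and 11.9% of DFO cells. No factor was found in 3.49% and 4.18%. All 8 were detected together in 7 vehicle and 3 DFO cells.

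The factors were weakly co-expressed across cells, and every pair pointed the same way. Correlations were computed on ln(1 + thinned molecules), within each library, over cells that share a library and a sequencing run, and are given as descriptions. All 28 pairs of factors were positive in both libraries, with a median Pearson r of 0.09 in vehicle and 0.06 in DFO. The lowest values were only 0.028 in vehicle and 0.016 in DFO. How many pairs of other genes are positive was not computed, so this count has no background beside it. In 21 of the 28 pairs the DFO value was the lower. The closest pair was Gata1 with its cofactor Zfpm1, at 0.31 in vehicle and 0.23 in DFO. Zfpm1 was detected in 86.9% of Gata1-positive vehicle cells against 56.9% of Gata1-negative ones, and in DFO cells the shares were 78.8% and 50.1%. Gata2 and Zfpm1 correlated at 0.20 in each library.

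Gata1 and Klf1, the pair that drives red cell genes, met in the same cell more often than their separate frequencies give. They were found together in 3.02 times as many vehicle cells and 3.42 times as many DFO cells as the product of their shares. This was the highest ratio of the 28 pairs in each library, but such a ratio can rise further for rarely detected genes. By Pearson r the pair was at 0.17 in vehicle and 0.12 in DFO, below Gata1 with Zfpm1 (0.31 and 0.23). Of Klf1-positive cells, 49.8% in vehicle and 37.2% in DFO also held Gata1. Fli1 and Klf1, which encode opposing factors, were not mutually exclusive in these sparse counts, with a ratio of 1.18 in vehicle and 1.32 in DFO. Gata1 and Gata2 correlated at 0.18 and 0.19. Gata2 was found in 78.1% of Gata1-positive vehicle cells and in 61.7% of Gata1-negative ones, so most cells with Gata1 RNA also carried Gata2 RNA. Nfe2 stood apart from the rest, and its highest correlation with another factor was 0.061 in vehicle, with Zfpm1, and 0.037 in DFO, with Gata2.

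**Figure D2:**
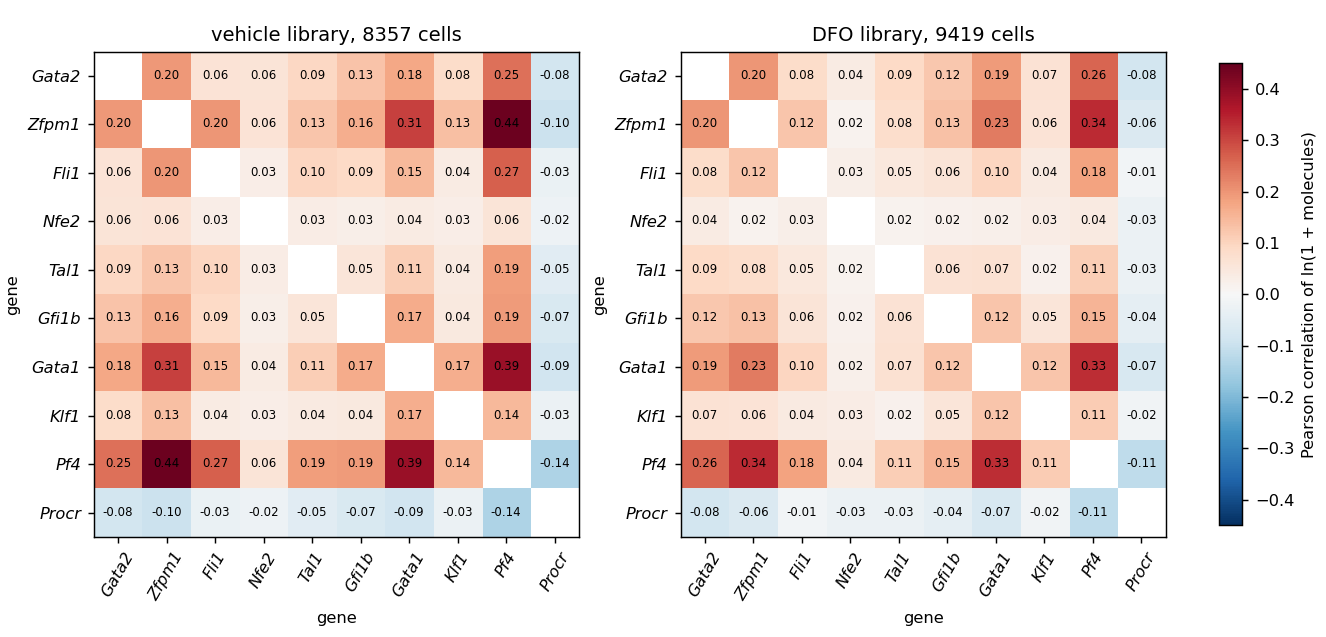
Pearson correlation of ln(1 + molecules) across thinned cells for each pair of the 8 factors, Pf4 and Procr, in the vehicle library (left, 8357 cells) and the DFO library (right, 9419 cells). Red is positive and blue negative. Zfpm1, Gata1 and Pf4 form the strongest block, the Nfe2 row is close to 0, and the Procr row is negative throughout.

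Pf4 was the gene most like several of the factors. Among 5474 genes at 20 CPM or more in vehicle, those with the highest correlation with Gata1 included Pf4 (0.39) and Itga2b (0.36), with 0.33 and 0.29 in DFO. Itga2b encodes CD41, an integrin chain of megakaryocytes. For Zfpm1 they again included Pf4 (0.44) and Itga2b (0.37), with 0.34 and 0.28 in DFO. Gata2 was most like Fgf3, a fibroblast growth factor gene (0.26 in vehicle and 0.27 in DFO), followed by Pf4 (0.25 and 0.26) and Pdcd4 (0.25 and 0.21), which encodes an inhibitor of translation. The genes most like Fli1 included Rap1b (0.28 and 0.17), which encodes a small GTPase of platelets, and Pf4 (0.27 and 0.18).

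The other factors gave lower values. Klf1 was most like Gata1 (0.17 and 0.12), Pdcd4 (0.15 and 0.10) and Pf4 (0.14 and 0.11). The genes most like Gfi1b included Pdcd4 (0.21 and 0.14) and Pf4 (0.19 and 0.15). Those most like Tal1 included Pf4 (0.19 and 0.11) and Rap1b (0.18 and 0.10). For Nfe2 no gene reached 0.08: the leading ones were Pdcd4 (0.071 and 0.035), Taok3 (0.063 and 0.027) and Zfpm1 (0.061 and 0.016). At the other end, H2afy, which encodes the histone variant macroH2A1, had the most negative correlation with 6 of the 8 factors in vehicle, from -0.17 with Klf1 to -0.44 with Zfpm1. This gene was singled out after its values were seen.

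The factors were higher in cells with more Pf4, steeply for Gata1 and Zfpm1 and only slightly for Nfe2. Cells were divided by their thinned Pf4 molecules into classes of 0, 1 to 2, 3 to 9, 10 to 29, and 30 or more, which are ranges and not cell types. Gata1 rose most steeply, from 3.44 CPM in vehicle cells without Pf4 through 7.53, 22.3 and 46.1 to 64.0 CPM in the highest class. In DFO cells the same classes had 4.14, 8.31, 23.4, 43.3 and 52.1 CPM. Zfpm1 rose from 68.6 to 254.0 CPM in vehicle and from 62.3 to 228.0 in DFO. Fli1 rose from 58.5 to 175.8 and from 61.2 to 166.7, with most of the rise in the upper classes. Tal1 rose from 37.0 to 77.55 CPM in vehicle and from 39.0 to 75.9 in DFO, and Gfi1b from 31.1 to 70.1 and from 29.5 to 71.3. Klf1 was at 0.834 and 0.780 CPM in cells without Pf4 and at 6.63 and 4.65 in the highest class. Nfe2, whose correlation with Pf4 was 0.057 in vehicle and 0.041 in DFO, was nearly level, between 49.2 and 61.2 CPM in vehicle and between 46.2 and 57.2 in DFO.

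Gata2 was highest short of the top. Its level in vehicle went from 94.9 CPM without Pf4 through 112.6 and 159.2 to 201.4 at 10 to 29 molecules, and was 175.2 at 30 or more. In DFO cells the last 2 values were 204.5 and 183.9, so the peak lay in the same class. Molecules of Gata2 per molecule of Gata1 fell accordingly, from 27.6 in vehicle cells without Pf4 to 2.74 in the highest class, and from 23.4 to 3.53 in DFO. Over all cells the ratio was 5.90 in vehicle and 8.85 in DFO.

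Low Pf4 counts are not by themselves a sign of a megakaryocyte. Among cells with 10 or more thinned molecules of Mpo, Elane, Prtn3 and Ctsg together, a range of neutrophil and monocyte progenitors chosen after seeing the data, 76 of 113 vehicle cells (67.3%) and 39 of 90 DFO cells (43.3%) held a Pf4 molecule. A Pf4 molecule was thus also found in cells chosen by genes of another lineage, and its source there was not tested. Gata1 was found in 1 of these 113 cells and in 1 of these 90, with median depths of 26685 and 24590 molecules. Gata2 was found in 46.0% and 34.4% of them and Nfe2 in 44.2% and 41.1%, so these cells give no background share for those genes.

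**Figure D3:**
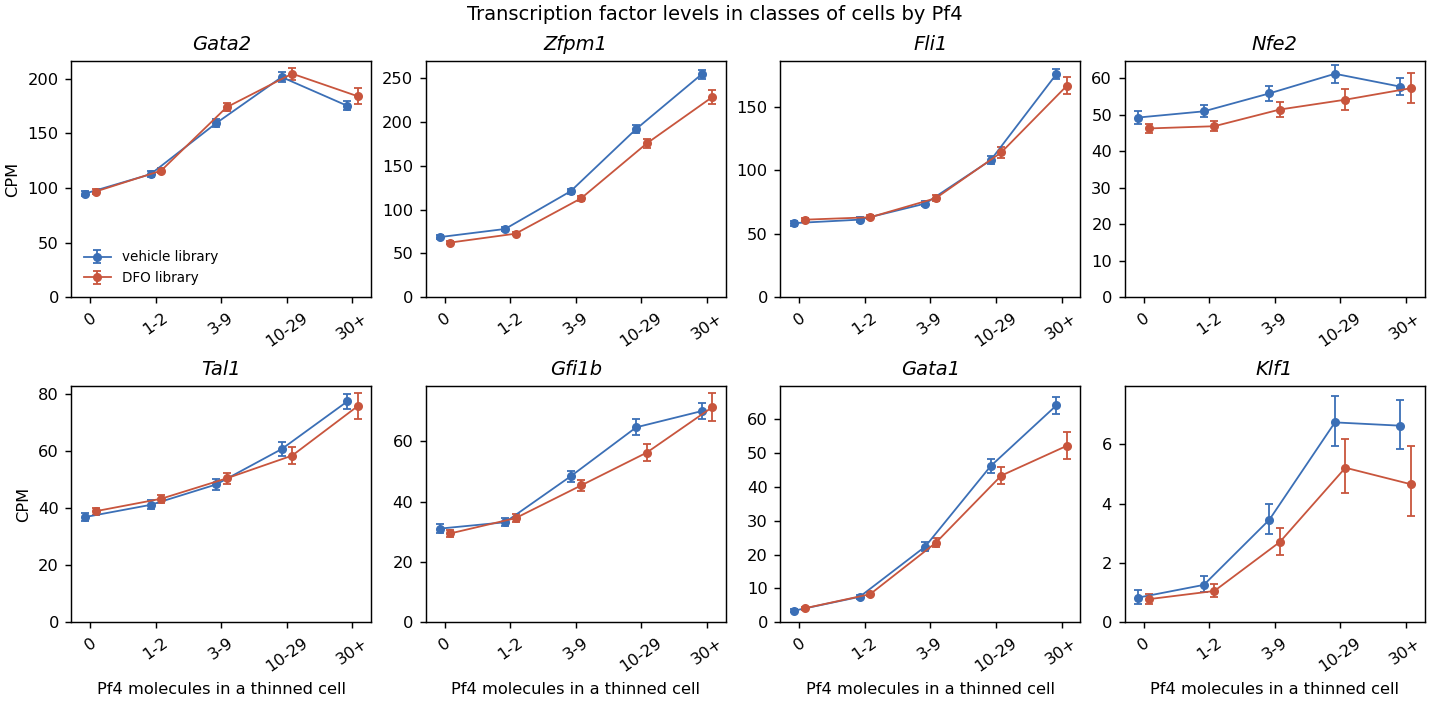
CPM of each factor (vertical axes start at 0) in classes of cells by thinned Pf4 molecules, in the vehicle and the DFO library. Points are sums over the cells of a class and bars are 95% Poisson intervals. Curves of both libraries run close together for Gata2, Fli1 and Tal1, and the Zfpm1 curve lies lower in DFO in every class.

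Within a Pf4 class most pairs of factors were still positively related, at lower median values. The median over the 28 pairs lay between 0.03 and 0.06 in the 5 vehicle classes and between 0.02 and 0.06 in the 5 DFO classes, with 22 to 27 pairs above 0. Gata1 with Zfpm1 was at 0.28 in vehicle cells of 3 to 9 Pf4 molecules and at 0.08 in those of 30 or more. In DFO these values were 0.17 and 0.10. Gata2 with Fli1 was negative in vehicle, at -0.070 for 10 to 29 Pf4 molecules and -0.066 for 30 or more. For this pair the DFO values were 0.024 and -0.007. A class narrows the range of both genes, so lower values within it carry no comparison with the whole library.

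The DFO library held fewer cells in the upper Pf4 classes. In vehicle 14.8% of thinned cells were at 10 to 29 molecules and 12.0% at 30 or more, against 8.81% and 3.65% in DFO. Cells without Pf4 made up 22.8% and 36.9%. Within a class most differences between the libraries were small. Zfpm1 was lower in DFO in all 5 classes beyond counting error, by log2 -0.10 to -0.16. Nfe2 was lower in all 5, beyond counting error in 3. Gata1 was lower beyond counting error only in the class of 30 or more (log2 -0.29), and Gfi1b only at 10 to 29 molecules (log2 -0.20). Gata2 was higher beyond counting error at 3 to 9 molecules (log2 0.13). Intervals of Fli1, Tal1 and Klf1 overlapped in each class. Pf4 itself still differed within classes, by log2 -0.43 in cells without a thinned Pf4 molecule and by -0.04 to -0.12 in the others.

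When cells were reweighted so that both libraries had the same share of each Pf4 class, the difference of Gata1 shrank from log2 -0.65 to -0.06 and that of Gfi1b from -0.26 to -0.05. Zfpm1 went from -0.45 to -0.12, and Nfe2, the factor least tied to Pf4, from -0.15 to -0.10. Klf1 went from -0.61 to -0.26. Gata2, Tal1 and Fli1 turned to slightly higher values in DFO, at 0.06, 0.04 and 0.04. Pf4 differs between the libraries by log2 -1.29 (1447 CPM in vehicle and 592.2 in DFO), so classes drawn from it are not the same cells in both. Whether fewer cells of a kind or less RNA per cell set these values was not tested.

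**Figure D4:**
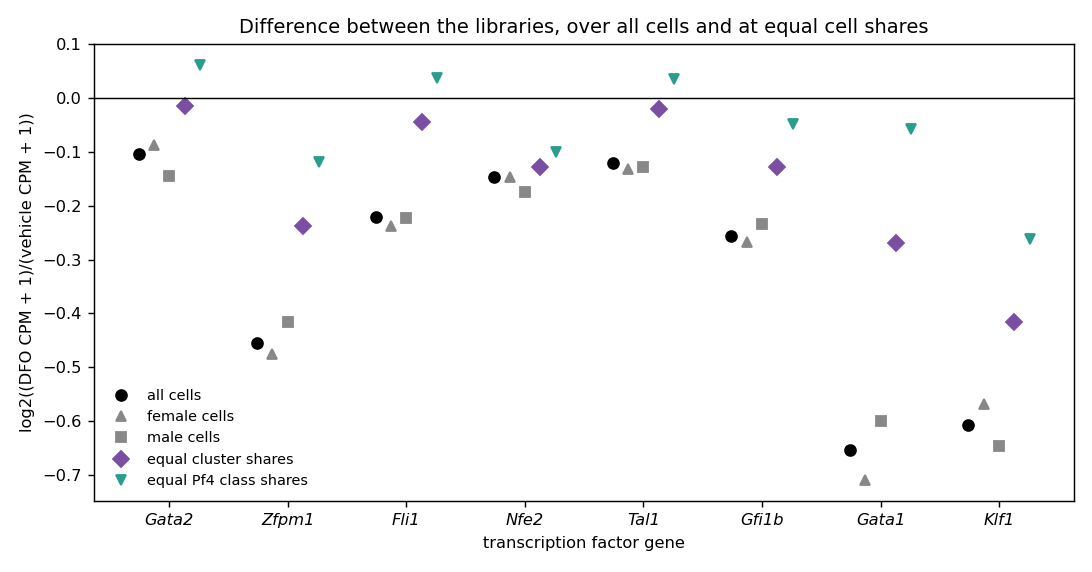
Log2 difference between the DFO and the vehicle library for each factor, over all cells, in cells called female or male, and with cells reweighted to equal cluster shares or equal Pf4 class shares. Each point is 1 value without error. Values from all cells and from either sex lie close together, and those at equal Pf4 class shares lie nearest to 0 or above it.

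By correlation, Procr ran weakly the other way. All 8 factors correlated negatively with it in both libraries, from -0.02 (Nfe2) to -0.10 (Zfpm1) in vehicle and from -0.01 (Fli1) to -0.08 (Gata2) in DFO. Procr itself was at 5.17 CPM in vehicle and 5.75 in DFO, in 4.97% and 5.39% of thinned cells. Gata1 was found in 6 of 415 vehicle cells and 6 of 508 DFO cells with a Procr molecule, which is 0.0877 and 0.109 times the number that independent detection gives. These shares were 1.45% and 1.18%, beside 0.885% and 1.11% in the neutrophil and monocyte range. The latter rest on too few cells to set a background level, so whether the former are background was not tested. In cells with 2 or more Procr molecules a thinned Gata1 molecule was in 0 of 61 and 0 of 77 cells, which allows shares of up to 4.92% and 3.90% of cells with a thinned molecule. At full depth the 61 vehicle cells held 2 Gata1 molecules and the 77 DFO cells 0.

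Gata2 and Zfpm1 were lower in these cells than in cells without Procr. At 1 or more Procr molecules Gata2 was at 86.0 CPM in vehicle and 78.95 in DFO, against 143.6 and 133.7 CPM in cells with none. It was detected in 33 of 61 vehicle cells and 31 of 77 DFO cells with at least 2 Procr molecules. Zfpm1 was at 67.8 and 60.9 CPM in Procr-positive cells against 131.3 and 94.7 in negative ones. Nfe2 was at 49.2 and 47.0 against 54.3 and 48.7. Fli1 was at 65.6 and 69.5 against 88.7 and 75.1, and at 2 or more Procr molecules in DFO it was not lower (76.5 CPM, 64.8 to 89.7). Cells without Procr also held more Pf4, at 1510 and 620.0 CPM against 251.8 and 110.2. Among those with fewer than 3 Pf4 molecules Gata2 was at 106.9 and 108.0 CPM. The part of Pf4 in these contrasts was not tested. Klf1 was detected in 5 of 415 vehicle and 4 of 508 DFO cells with Procr, 1.20% and 0.787%. Among Procr-positive cells the intervals of both libraries overlapped for all 8 factors. Only 2 vehicle cells and 0 DFO cells combined 10 or more Pf4 molecules with 2 or more Procr molecules, so this class gave no comparison.

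Clusters were then made without the 8 factors, Pf4, Procr, sex-linked, cell cycle, mitochondrial and ribosomal genes, and the factors were read in them as a description. Of 8 clusters, cluster 4 was HSC-like (Sult1a1, Procr and Ly6a among its leading genes) and cluster 5 megakaryocyte-like (Clec1b, Pf4 and Ppbp). Cluster 0 (Lpl, Slc7a8, Aqp1) and cluster 6 (Il1rl1, Fgf3, Slc7a8) stay unnamed. Cluster 7, whose cells are shallow at a median of 6947 molecules, stays unnamed too. The rest were led by Bex6 and Ung (cluster 1), Nusap1 and Ube2c (cluster 2), and Igfbp7, Ccl9 and Cebpa (cluster 3). Although they took no part in the clustering, Gata1 and Klf1 were among the 10 leading genes of cluster 0, and Gata1 among those of cluster 6.

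Gata1 marked 3 clusters. In vehicle it was at 62.5 CPM in the megakaryocyte-like cluster, 52.2 in cluster 6 and 42.5 in cluster 0, and between 1.55 and 3.84 in clusters 1 to 4. In DFO the highest and lowest were 49.7 CPM in the megakaryocyte-like and 1.24 in the HSC-like cluster. Gata2 was highest in cluster 6, at 251.9 and 261.5 CPM, and lowest in the HSC-like cluster, at 80.0 and 69.5, a range of 3.15-fold in vehicle against 40.3-fold for Gata1. Klf1 was also highest in cluster 6, at 8.02 and 4.95 CPM. Leaving the shallow cluster 7 aside, Zfpm1 (253.5 and 224.8), Fli1 (181.2 and 166.5) and Tal1 (79.7 and 75.9) were highest in the megakaryocyte-like cluster. Gata2 molecules per Gata1 molecule were 2.51 and 3.47 there, 4.83 and 5.87 in cluster 6, and 48.4 and 56.0 in the HSC-like cluster.

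**Figure D5:**
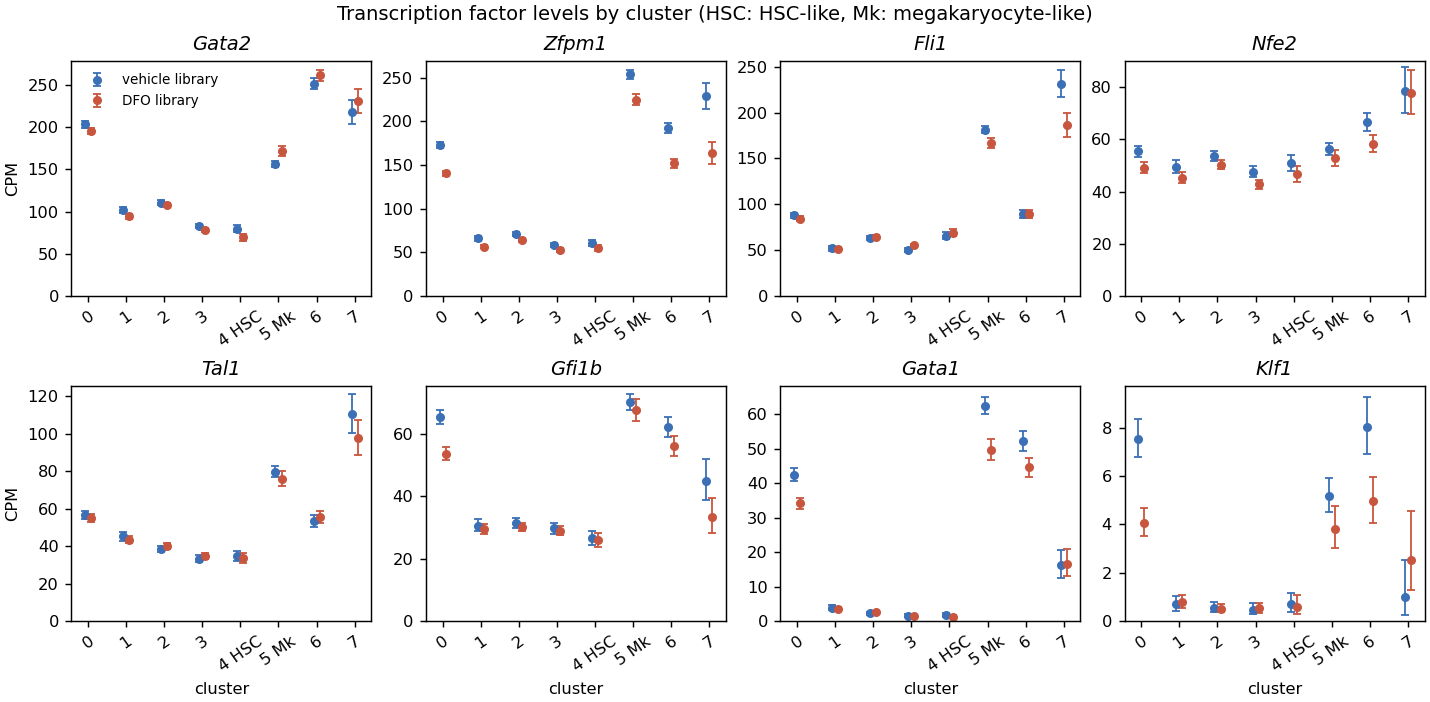
CPM of each factor (vertical axes start at 0) by cluster in the vehicle and the DFO library, with 95% Poisson intervals. Gata1 and Klf1 are near 0 in clusters 1 to 4, Gata2 peaks in cluster 6, and Fli1 and Zfpm1 are high in the megakaryocyte-like cluster 5. Cluster 7 holds the shallow cells.

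Within clusters the factors did not all move together. Zfpm1 was lower in DFO in all 8, beyond counting error in 7, by log2 -0.12 to -0.48. Nfe2 and Gfi1b were also lower in all 8, beyond counting error in 3 and 1. Gata1 was lower beyond counting error in the 3 clusters that express it most, by -0.31 in cluster 0, -0.33 in the megakaryocyte-like cluster and -0.22 in cluster 6. Klf1 was lower in cluster 0 (7.55 and 4.06 CPM, log2 -0.76) and cluster 6 (log2 -0.60). Gata2 was lower in the HSC-like cluster (log2 -0.20) and cluster 1 (log2 -0.11) and higher in the megakaryocyte-like cluster (156.6 and 172.1 CPM, log2 0.14). Fli1 was higher in cluster 3 (log2 0.13) and lower in the megakaryocyte-like cluster (log2 -0.12). Tal1 did not differ beyond counting error in any cluster. Pf4 was lower in DFO beyond counting error in all 8 clusters, by log2 -0.47 in the megakaryocyte-like cluster, -0.87 in cluster 0, -0.79 in cluster 6 and -1.53 in the shallow cluster 7. Its part in the differences of the factors was not tested. With equal cluster shares, Gata1 differed by log2 -0.27, Klf1 by -0.42, Zfpm1 by -0.24, Nfe2 and Gfi1b by -0.13 each, Fli1 by -0.04, Tal1 by -0.02 and Gata2 by -0.01.

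The genes that the factors work with or act on were read from 4 lists, from which genes at 5 CPM or more in either library entered. Over all 8959 such genes the median log2 difference was 0.02, and 42.1% were lower in DFO, 2.69% by 0.25 or more, while 1.51% were higher by 0.25 or more. The 19 genes of partner proteins and cofactors, such as the LMO2 and LDB1 bridge and corepressor subunits, all entered, and their median log2 difference was 0.03. Of them 9 were lower and 10 higher, 0 were lower by 0.25 or more, and 1 was higher by that much, against the 2.69% and 1.51% of all genes. Ldb1, the bridge between complexes, was higher (22.9 and 27.6 CPM, log2 0.26), as was Tcf3 (log2 0.20), which encodes the E protein that pairs with TAL1. Lowest were Runx1 (log2 -0.15) and Bach1 (log2 -0.13).

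Of 16 megakaryocyte target genes 11 entered, all 11 were lower, 10 of them by 0.25 or more, and the median was log2 -0.60. Treml1, a platelet granule receptor gene (23.9 and 8.00 CPM, log2 -1.47), and Pf4 were lowest, and Selp, an adhesion receptor gene of platelets (log2 -0.28), was among the highest. Of 20 erythroid target genes 8 entered, 7 were lower, 4 of them by 0.25 or more, and the median was log2 -0.19. Aqp1, a water channel gene (8.67 and 5.74 CPM, log2 -0.52), and Epor, the erythropoietin receptor gene (8.36 and 6.08 CPM, log2 -0.40), were lowest. Car2 (log2 0.05) and Bcl2l1 (log2 -0.01) were highest. The globin genes of this list, singled out after their values were seen, differed widely in level. Hbb-bt entered at 518.2 and 488.7 CPM (log2 -0.08). Hbb-bs (4.81 and 3.41 CPM) and Hba-a1 (0.184 and 0.116 CPM) did not enter. Of 10 transcription factors of other lineages 4 entered, Gata3 (log2 0.14), Ikzf1 (log2 0.06), Spi1 (log2 -0.0048) and Cebpa (log2 -0.19), with a median of 0.03.

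The mice contributed cells of both sexes, called by Xist and Y-linked molecules. Each of the 8 factors was lower in DFO beyond counting error among female cells (4751 in vehicle and 5251 in DFO) and among male cells (2767 and 3266). The share of all genes that differ beyond counting error was not computed for either sex. Gata1 went from 23.9 to 14.2 CPM in female cells (log2 -0.71) and from 23.6 to 15.2 in male cells (log2 -0.60). Zfpm1 differed by log2 -0.47 and -0.42. The sexes come from different mice of the pool but shared each culture and library.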

How the data were processed

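Single-cell RNA was measured in 2 libraries, 1 for each treatment, from 20000 loaded cells each. Per the submitters' processing notes, Cell Ranger 3.0.2, Trim Galore 0.6.5, FastQC 0.11.9 and build mm10 were used. No annotation and no filter on cells or genes is given in the sources used here. The authors deposited natural log values, ln(1 + 27408 × molecules/total molecules of the cell), as the values themselves show. All nonzero values gave whole molecules within 0.05, and these molecules were used.

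The 8 genes and all gene lists were chosen with earlier results of these data known. Molecules were summed per library or class, scaled to CPM and compared with a pseudocount of 1 CPM. Intervals are 95% exact Poisson for levels and Clopper-Pearson for shares. The limit for 0 cells is 3 counts. Cells of at least 10000 molecules were thinned to that number (seed 0) for shares, correlations and Pf4 and Procr classes. Named genes are the 8 factors, Pf4, Procr, the 3 most correlated genes of each factor, the 2 highest and 2 lowest of each list at 5 CPM or more, and leading genes of clusters. Some of these genes are not reported here. Clusters are Leiden at resolution 0.5 on 2000 variable genes, 30 components and 15 neighbours. A cluster was named only with 2 or more markers among its 10 leading genes, a rule set after seeing the data. Scrublet's own threshold marked 3 and 2 cells as doublets and so did not work. All cells were kept, and the cells in the top 8% of scores (762 and 817) were left out as an alternative. Scripts were tested on simulated data. Computation used scanpy 1.11.5 with leidenalg 0.10.2, scipy 1.17.1 and pandas 2.3.3 under Python 3.11.15. Alternatives covered scaling, pseudocount, cell filters, doublets, cell makeup and sex.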

Additional observations from a re-analysis of the deposited data

Results flagged for a closer look

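Gata2 differed in opposite directions between cell groups, beyond counting error in each. It was lower in DFO in cluster 1 (log2 -0.11) and in the HSC-like cluster (log2 -0.20), and higher in the megakaryocyte-like cluster (log2 0.14). The same held for classes by thinned Gata1 molecules, which were added after seeing the data: Gata2 was lower in cells without Gata1 (129.2 and 121.2 CPM, log2 -0.0915) and higher in cells with 2 or more Gata1 molecules (203.7 and 230.7 CPM, log2 0.18). Fli1 was higher in DFO in cluster 3 (log2 0.13) and lower in the megakaryocyte-like cluster (log2 -0.12) and in the shallow cluster 7 (log2 -0.31). With 1 library per group, these differences between cell groups were not tested.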

How the results depend on the processing

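The log2 difference of each factor was recomputed under 16 alternatives, of which those on shared barcodes, depth, the shallow cluster and equal cluster shares at resolutions 0.25 and 1 were chosen after seeing the data. Of 128 values so obtained, 125 kept their direction. A change of pseudocount cannot reverse a direction, and leaving out the 24 shared barcodes changes few cells. The count is therefore no measure of robustness. All 3 reversed values came from equal Pf4 class shares, which change the cell makeup. With equal Pf4 class shares Gata2 (0.0618), Tal1 (0.0360) and Fli1 (0.0364) turned higher in DFO, so that 5 of the 8 factors were lower. Over all cells 4 of the 8 factors, Klf1 included, were lower by log2 0.25 or more and 0 were higher. The count lower by 0.25 or more was 2 with a pseudocount of 10 CPM, 2 with equal cluster shares and 1 with equal Pf4 class shares, and 3 or 4 under the other alternatives. Apart from the alternatives with equal shares, Gata1 ranged from -0.71 to -0.45, Zfpm1 from -0.48 to -0.42, Klf1 from -0.82 to -0.17 and Gata2 from -0.15 to -0.09. With clusters at resolutions 0.25 and 1, Zfpm1 was lower in 100% of clusters, Gfi1b in 100% and 81.2%, and Nfe2 in 75.0% and 87.5%. Correlations depended on depth: with full-depth log values the median between factors was 0.15 in vehicle and 0.13 in DFO, with Pf4 0.30 and 0.23 (against 0.22 and 0.17 in thinned cells), and with Procr -0.0919 and -0.0844 (against -0.06 and -0.03). With Spearman's rho the median with Pf4 was 0.13 in DFO. The cause was not tested. No paired analysis was possible because each group has 1 library, and for the same reason no library could be left out.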
